A study of Mus musculus with 4 samples.

Results

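The peak list for histone H4 monomethylated at lysine 12 (H4K12me1) in mouse colorectal tumour organoids is described here by itself. It comprised every H4K12me1 peak on chromosomes 1 to 19 of mm10, 60058 of the 60409 peaks in the list (99.4%) and of 177109 peaks in the 3 lists of the study. Chromatin immunoprecipitation and sequencing (ChIP-seq) had been done with antibodies against H4K12me1 and against KMT9alpha and KMT9beta, the products of N6amt1 and Trmt112. The organoids were epithelial cultures from a tumour induced with azoxymethane, a carcinogen, and dextran sulfate sodium, which injures the colon. They were a single clone, clone 3, at passage 14, grown in a serum-free medium with epidermal growth factor. The treatment text names tamoxifen at 1 µM together with vehicle for every library and does not say which was given to this one, and no genotype is stated. Each antibody had 1 library, so nothing here has a replicate check and no p-value is given. Intervals in parentheses are 95% intervals that cover counting over peaks or genes only, and neighbouring peaks are not independent.

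KMT9 is a methyltransferase whose catalytic subunit, KMT9alpha, works as a pair with KMT9beta and places a single methyl group on lysine 12 of histone H4. The mark has been associated with the promoters of genes that drive proliferation. A transcription start site (TSS) is the first base of a transcript, which runs downstream from it. Bases upstream of a TSS may also be transcribed, from another start of the same gene or from another gene. Many mammalian promoters lie in CpG islands, stretches rich in cytosine followed by guanine.

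Stretches of 200 bases from the middle of 6 peaks are printed as examples. They are given on the forward strand of GRCm38.p6, the assembly behind mm10, with CpG in capitals. The first 4 come from peaks on a TSS, upstream within 5 kb, downstream within 5 kb and more than 50 kb away. None is shown from 5 to 50 kb. The Slc30a3, Tmem125 and Esp38 peaks had the highest score of their class, and Esp38 was the widest of those tied. The Cdk8 peak, downstream within 5 kb, scored 1228.59 and was not the highest of its class. Another peak, 2663 bp downstream of a TSS, scored 2802.39, and its bases are not printed. The names are those of the nearest protein-coding gene. Axin2, a feedback inhibitor and target of Wnt signalling, and Lgr5, the R-spondin receptor that marks intestinal stem cells, were added after their values were seen, to show peaks at genes of this tissue.
Slc30a3: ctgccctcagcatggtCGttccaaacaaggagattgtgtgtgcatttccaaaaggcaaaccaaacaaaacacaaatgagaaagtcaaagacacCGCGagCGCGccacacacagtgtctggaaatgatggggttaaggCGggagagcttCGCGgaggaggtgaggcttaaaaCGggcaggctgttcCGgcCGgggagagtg
Tmem125: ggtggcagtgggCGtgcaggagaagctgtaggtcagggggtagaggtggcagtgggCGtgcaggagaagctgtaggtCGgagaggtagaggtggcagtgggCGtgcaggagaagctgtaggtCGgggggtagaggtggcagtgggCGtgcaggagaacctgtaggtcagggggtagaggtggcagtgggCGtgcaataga
Cdk8: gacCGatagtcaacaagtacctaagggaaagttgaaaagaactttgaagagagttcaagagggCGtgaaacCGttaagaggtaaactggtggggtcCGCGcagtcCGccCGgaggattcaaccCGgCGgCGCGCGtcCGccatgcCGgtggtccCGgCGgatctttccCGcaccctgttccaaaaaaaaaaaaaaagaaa
Esp38: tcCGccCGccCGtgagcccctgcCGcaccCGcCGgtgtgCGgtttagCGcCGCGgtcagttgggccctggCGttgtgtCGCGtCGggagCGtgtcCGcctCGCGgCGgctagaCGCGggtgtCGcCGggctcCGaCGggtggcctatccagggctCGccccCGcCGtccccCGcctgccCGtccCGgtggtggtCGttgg
Axin2: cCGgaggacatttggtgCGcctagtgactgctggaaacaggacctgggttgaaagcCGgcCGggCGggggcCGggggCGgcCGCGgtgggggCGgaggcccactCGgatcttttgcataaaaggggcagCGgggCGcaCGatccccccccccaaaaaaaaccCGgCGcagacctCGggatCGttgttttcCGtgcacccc
Lgr5: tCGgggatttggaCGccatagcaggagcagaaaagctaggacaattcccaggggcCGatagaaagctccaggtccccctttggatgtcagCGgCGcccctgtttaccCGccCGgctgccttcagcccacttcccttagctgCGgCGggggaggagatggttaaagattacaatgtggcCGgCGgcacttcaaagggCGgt
The Slc30a3 stretch, chr5:31094764-31094963, lies in a peak on a TSS and held 11 CpG. The Tmem125 stretch, chr4:118547992-118548191, lies in a peak 3001 bp upstream of a TSS and is a tandem repeat. Shifted by 89 bases it matched itself at 75.7% of positions, against 34.2% to 41.1% for the best shift of 5 to 100 bases in the other stretches. The Cdk8 stretch, chr5:146261185-146261384, lies in a peak 3082 bp downstream of a TSS. The Esp38 stretch, chr17:39845704-39845903, lies in a peak 101508 bp from the nearest TSS, was 77.0% G or C and held 32 CpG. In the RefSeq annotation its peak covers Rn18s-rs5, a copy of the 18S ribosomal RNA gene. The Axin2 stretch, chr11:108920838-108921037, held 19 CpG, and the Lgr5 stretch, chr10:115586456-115586655, held 12.

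Most peaks were narrow and of nearly the same width. The median width was 623 bp (622 to 624), the quartiles were 587 and 773 bp, and 65.4% of peaks were 500 to 699 bp wide. Only 975 peaks (1.62%) reached 2 kb, 119 reached 5 kb and 29 reached 10 kb. The widest measured 24783 bp, and the whole list covered 45.9 Mb. The authors' score ran from 50.00 to 3100.00 with a median of 79.93, and 71.4% of peaks scored 100 or less. Scores rank peaks within this list and are not compared with those of the other lists.

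Width rose with score only in the upper part of the list. When the list was divided by score into 4 classes of equal size, from the lowest to the highest, the median widths were 593 bp, 594 bp, 642 bp and 944 bp (939 to 951). With 10 classes of equal size the median stayed between 580 and 614 bp in the lowest 6 and then went through 648, 713 and 866 bp to 1249 bp. Over the 60058 peaks Spearman's rho between width and score was 0.61, against 0.79 in the KMT9alpha list and 0.83 in the KMT9beta list. This is a description over peaks of 1 library, in which width and score come from the same reads.

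**Figure D1:**
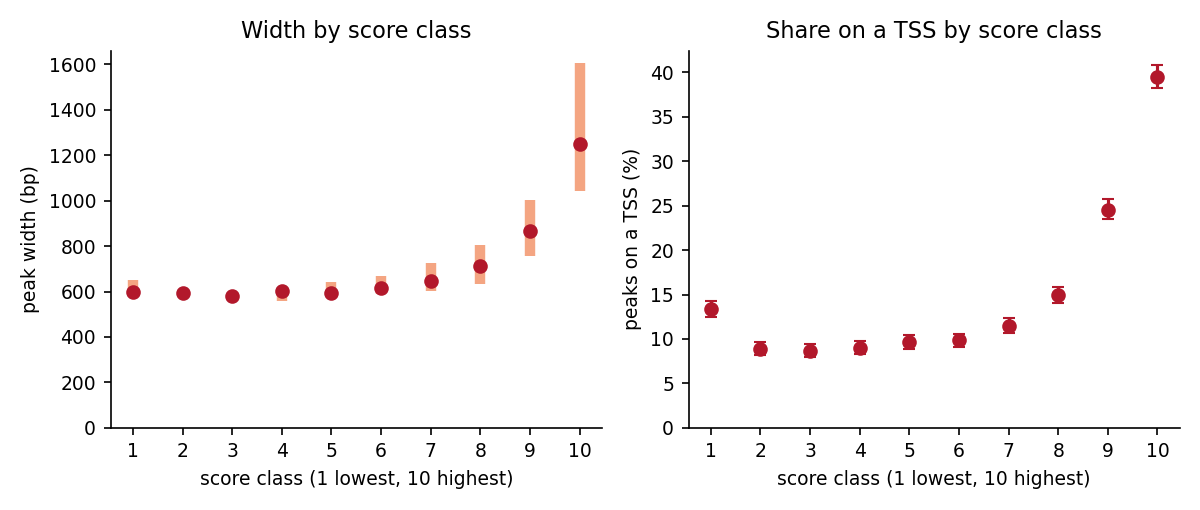
H4K12me1 peaks in 10 classes of score of equal size, lowest at the left. The left panel gives the median width in bp with bars for the quartiles, and the right panel gives the share on a TSS in percent with 95% exact binomial intervals. Width leaves the 600 bp level and the share on a TSS climbs in the upper classes, to 1249 bp and 39.5% in the highest.

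Position changed along with width, though a wider peak also covers a start more readily, and the part of this was not tested. A peak on a TSS, that is, one covering the start of any annotated transcript of a protein-coding gene, was found for 10.6%, 9.22%, 11.4% and 28.8% of the peaks in the 4 score classes. Among the 10 classes the lowest stood above its neighbour, with 13.4% on a TSS against 8.89% in the next, and 36.0% of its peaks lay on chromosome 5 or 19, against 12.2% to 30.7% in the others. In the highest of the 4 classes the peaks on a TSS had a median width of 1085 bp (1071 to 1098) and the others 893 bp (887 to 899). In the lowest class these widths were 595 and 593 bp. The share of peaks overlapping KMT9beta by at least 1 bp was 49.8%, 45.4%, 50.7% and 78.5% over the 4 classes, and the share overlapping KMT9alpha was 16.8%, 13.0%, 16.7% and 42.6%.

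The 5 highest-scoring peaks all carried the score of 3100.00, and none lay on a TSS of a protein-coding gene. All 5 overlapped a KMT9alpha peak and a KMT9beta peak. The 6418 bp peak at chr17:39842595-39849012, nearest to Esp38, covers Rn18s-rs5 and the non-coding gene AY036118. A 3404 bp peak on chromosome 17, nearest to Tcte2 at 179482 bp, covers the non-coding gene 2700054A10Rik, and 75.7% of its bases are annotated as repeats. A 2986 bp peak on chromosome 13, nearest to Zfp825, covers the pseudogene Gm20590, and 95.7% of its bases are annotated as repeats. A 2094 bp peak on chromosome 4 near Tmem125 and a 1003 bp peak on chromosome 11, 67680 bp from Axin2, lie in the non-coding genes Gm40237 and Gm36876. Annotated repeats made up 10.0% of the peak near Esp38, 6.78% of that near Tmem125 and 1.89% of that nearest to Axin2. The labels do not say how the authors placed reads that match several repeated copies.

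None of the 5 widest peaks was among the 5 with the highest score. The 24783 bp peak on chromosome 5 ran across Emilin1, Khk and Cgref1 with a score of 170.79. Khk encodes ketohexokinase, the first enzyme of fructose breakdown. A 20168 bp peak lay at Cad, which encodes the enzyme that starts pyrimidine synthesis, and scored 111.67. Next came an 18279 bp peak on chromosome 6 nearest to Pdia4, a 17743 bp peak at Asb10 and a 17419 bp peak in Prkag2, which encodes a regulatory subunit of the energy sensor AMPK. Of the 29 peaks of 10 kb or more, 25 lay on chromosome 5 between 3 and 33 Mb, 21 were on a TSS, 100% overlapped KMT9alpha and 65.5% overlapped KMT9beta.

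Peaks were found on gene starts far more often than windows of the median peak width. Peaks differ in width and a wider one covers a start more readily, and the part of this in the share was not tested. Of all peaks, 9005 (15.0%, 14.7 to 15.3) were on a TSS, whereas 1.42% of the 3845399 adjoining windows of 623 bp that tile the same chromosomes were. A further 6654 (11.1%) lay upstream within 5 kb and 9304 (15.5%) downstream within 5 kb. Another 24893 (41.4%) lay 5 to 50 kb away and 10202 (17.0%) more than 50 kb away, against 47.7% of windows at over 50 kb. The median distance to the nearest TSS was 8246 bp, against 44141 bp for windows.

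These values depend on which starts are counted. Many annotated starts belong to transcripts of protein-coding genes that are not themselves protein-coding. With starts of protein-coding transcripts only, 12.4% of peaks were on a TSS and the median distance was 12711.5 bp. With 1 start per gene, at its 5' end, 8.84% were on a TSS and the median distance was 18143 bp.

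Among the 15958 peaks within 5 kb that touched no TSS, 58.3% (57.5 to 59.1) were downstream, against 51.3% of windows. The same share was 55.6% (54.1 to 57.1) in the KMT9alpha list and 55.9% (55.3 to 56.6) in the KMT9beta list. The downstream share of H4K12me1 peaks was greatest next to the start and lower farther away. It was 64.9% (62.6 to 67.2) at 1 to 200 bp, 59.4% at 201 to 500 bp, 58.0% at 1001 to 2000 bp and 56.3% at 2001 to 5000 bp. It was 53.6% (52.9 to 54.3) at 10001 to 50000 bp, the lowest of the distance classes, where windows gave 51.8%. Beyond 50 kb it was 54.4% (53.4 to 55.4), where windows gave 49.9%. The 4 score classes gave 56.8%, 58.7%, 57.3% and 60.8%, and the 19 chromosomes ranged from 55.2% to 63.2%. Peaks on a TSS leaned the same way, with midpoints at a median of 50 bp downstream and 62.4% (61.4 to 63.4) on that side.

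**Figure D2:**
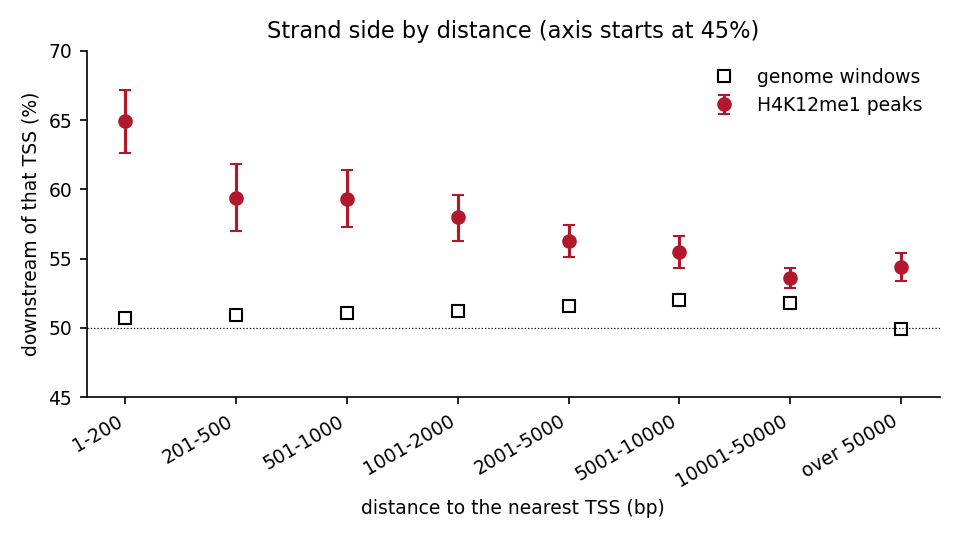
Share of H4K12me1 peaks, in percent, that lie downstream of their nearest TSS, by distance in bp; the vertical axis starts at 45%. Filled points with 95% exact binomial intervals are peaks and open squares are genome windows of the median peak width, and the peaks go from 64.9% nearest the start to 53.6% at 10001 to 50000 bp and 54.4% beyond, while the windows stay between 49.9% and 52.0%.

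Coverage around the 5' ends of the 20807 protein-coding genes was shifted in the same direction. At the 5' end itself 27.8% of genes lay in an H4K12me1 peak, and the most, 30.3%, were covered 200 bp downstream. At 500 bp the covered share was 11.3% upstream and 25.6% downstream, and at 1000 bp it was 5.12% and 11.5%. Among the 16684 genes with no 5' end of another gene within 5 kb the highest share was 28.3%, at 250 bp downstream. At the 5' end KMT9alpha peaks covered 48.1% of genes and KMT9beta peaks 58.9%.

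**Figure D3:**
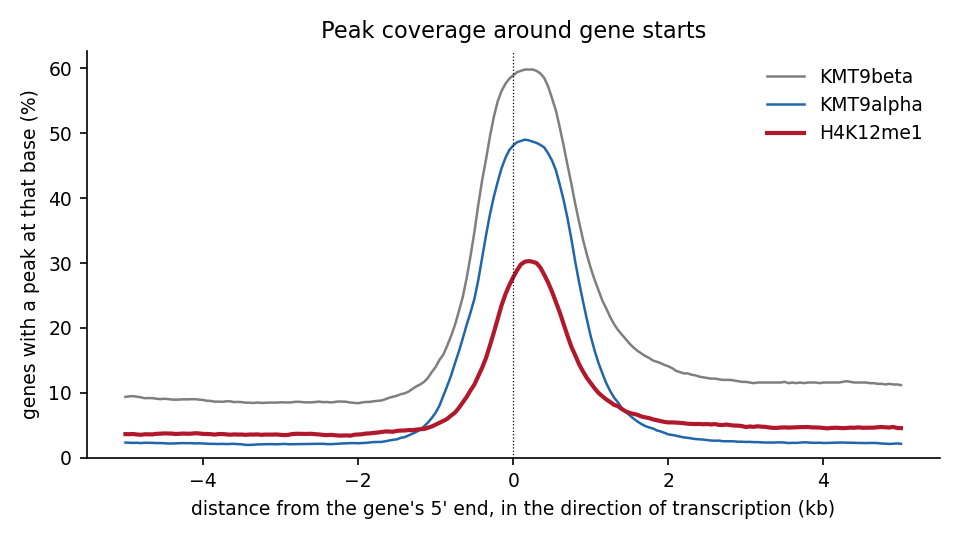
Percent of 20807 protein-coding genes with a peak at each base from 5 kb upstream to 5 kb downstream of the gene's 5' end, for the 3 lists. The H4K12me1 curve has its top, 30.3%, 200 bp downstream of the start and is higher at 500 bp downstream, 25.6%, than at 500 bp upstream, 11.3%.

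Overlap with the enzyme lists also went with position. KMT9beta overlapped 88.3% of the H4K12me1 peaks on a TSS, 64.0% of those downstream within 5 kb, 55.5% of those upstream, 47.7% at 5 to 50 kb and 41.4% beyond. KMT9alpha overlapped 68.8%, 21.9%, 17.4%, 11.2% and 11.6% of the same classes. Peaks on a TSS were the widest, with a median of 773 bp (762 to 783), and the other 4 classes had medians of 608 to 617 bp. Peaks on a TSS also had the highest median score, 102.66, against 77.91 to 79.10.

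The bases under the peaks differed with position. The median G+C content was 53.3% over all peaks and 41.7% over windows, and on a TSS it was 61.0% for peaks and 50.9% for windows. Calling a peak CpG-rich when G+C was at least 50% and CpG reached at least 0.6 of the number expected from base content, 14.5% of peaks and 0.705% of windows qualified. On a TSS the shares were 60.5% (59.4 to 61.5) and 23.3%, and more than 50 kb away they were 7.05% and 0.170%. Annotated repeats made up a mean of 20.8% of the bases of a peak and 33.5% of a window, and 35.9% of a peak more than 50 kb from a TSS.

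Short motifs were counted as well. The letters were searched on both strands in the central 300 bp of each peak and in windows of the same length. The ETS site CCGGAAGT was in 0.862% of peaks and 0.189% of windows, and on a TSS in 2.88% and 2.19%. The letters rich in A and T were rarer in peaks: TATAAA was in 5.67% of peaks and 26.8% of windows, CTTTGAA, the core bound by TCF and LEF factors, in 4.10% and 7.93%, and CCATAAA, bound by CDX factors, in 1.96% and 4.73%. The AP-1 site TGANTCA was in 6.64% and 8.88%. A match is a description of the letters and not evidence of binding.

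Of the protein-coding genes, 10494 (50.4%) had an H4K12me1 peak within 1 kb of a start. In 8061 genes (38.7%) a peak covered a start. In 1312 genes (6.31%) peaks lay only downstream of the starts, in 713 (3.43%) only upstream and in 408 (1.96%) on both sides. KMT9beta was also present within 1 kb at 95.6% of the genes with H4K12me1 on a start, 89.6% of those with it only downstream and 44.3% of those without it. KMT9alpha was present at 84.7%, 62.3% and 32.4%. Nrxn2, a neuronal adhesion gene with 15 annotated starts, had the most separate promoter peaks with 13, followed by Ltbp3, a binding partner of latent TGF-beta, with 11, Plch2, a phospholipase C gene, and Plekha6 with 10 each. Arap1 was the first by symbol of 8 genes with 9.

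Gene bodies carried most of the list. A peak overlapped the body of 12910 genes (62.0%), and 64.4% of peaks (64.0 to 64.7) lay at least partly in a protein-coding gene, against 41.8% of windows. Per gene the median was 1 peak and the mean 1.99, while 660 genes (3.17%) had 10 or more. Longer genes more often had a peak but held fewer per length. The share with a peak was 42.7% for genes under 10 kb and 89.1% for genes of 300 kb or more, and the density was 14.0 and 1.38 peaks per 100 kb. Across genes, Spearman's rho between length and number of peaks was 0.42, as a description over 20807 genes.

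Along the 9678 genes of 20 kb or more, peaks were dense at the start, sparse in the middle and denser again towards the end. With each gene divided into 10 equal parts, the first held 6.25 peak midpoints per 100 kb, the next 6 held 2.49 to 2.71 and the last 3.84. Counts then were 5.38 per 100 kb in the 5 kb past the end and 5.59 in the 5 kb before the start. From 5 to 10 kb they were 5.74 past the end and 3.56 before the start. The flanks may hold other genes. Each gene adds the same 5 kb to a flank, whereas longer genes, with fewer peaks per length, add more to the 10 parts. Parts and flanks are thus weighted differently, and their densities are not compared. Without the first 1 kb of each gene, 49.7% of genes had a body peak.

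**Figure D4:**
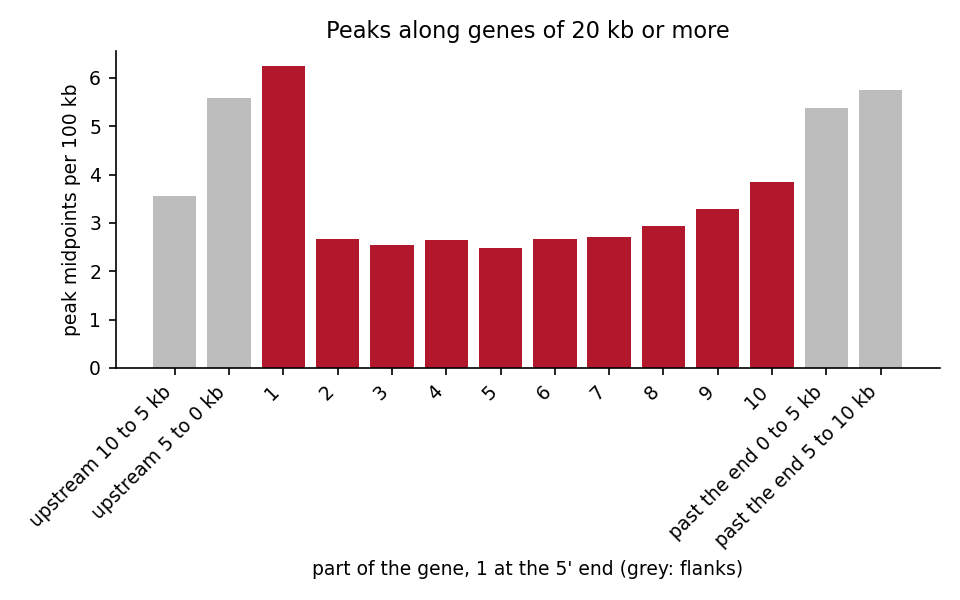
H4K12me1 peak midpoints per 100 kb in 10 equal parts of 9678 protein-coding genes of 20 kb or more, from the 5' end, with 5 kb flanks in grey. The first part, 6.25, is above the middle ones, and the last, 3.84, is above them too.

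The gene model with most peaks was Gm20388 with 670, but it spans 4435 kb of chromosome 8 and contains other genes, Gse1 among them. Fgfr2, a fibroblast growth factor receptor, followed with 108 peaks in a model of 2961 kb, a density of 0.365 per 10 kb. Dpp6, a partner of potassium channels, and Gse1 had 101 each, at 1.11 and 2.86 per 10 kb. Sh3pxd2a, which encodes the scaffold protein TKS5 of invasive cell protrusions, had 87, and Rasgef1b had 82. Macrod1, an enzyme that removes ADP-ribose, and Prkag2 had 65 each, Magi2 had 60 and Slit1, an axon guidance ligand, had 59. Of these 10 genes, Dpp6, Rasgef1b, Prkag2 and Magi2 lie on chromosome 5 and Sh3pxd2a, Macrod1 and Slit1 on chromosome 19. Of the 27 genes with 40 peaks or more, 19 lie on those chromosomes, against 459 of the 7897 genes with none.

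Density brought out short genes, which the filter used here favours. To reach 5 peaks a short gene needs a high density, and a long one does not. Among the 2298 genes of at least 10 kb with at least 5 peaks the median was 1.33 peaks per 10 kb. Bad, which promotes cell death by binding BCL2 proteins, reached 6.97, Ptbp1, a splicing regulator, 6.77 and Efna2, an ephrin ligand, 6.65. The next were Ccdc88b at 6.62, Fam171a2 at 6.54, Mical1, which oxidises actin, at 6.53, Atg2a, a lipid transfer protein of autophagy, at 6.29, Sart1, a splicing factor, at 6.26, Ltbp3 at 6.24 and Midn at 5.94. The 7 peaks in Bad had a median score of 141.47 and the 7 in Fam171a2 one of 86.66. Bad, Ccdc88b, Atg2a, Sart1 and Ltbp3 are on chromosome 19.

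Chromosomes 5 and 19 held more peaks per length than the rest. Chromosome 19 had 90.8 peaks per Mb and chromosome 5 had 44.0, whereas the other 17 chromosomes had 12.3 to 37.8. On chromosome 5 the stretch from 3 to 33 Mb held 75.8 per Mb with a median width of 1160 bp, and the rest held 35.9 per Mb with a median of 618 bp. KMT9alpha peaks numbered 29.3 per Mb on chromosome 19 and 24.2 on chromosome 5, against 6.18 to 16.5 on the other 17. KMT9beta peaks numbered 93.1 and 57.8, against 19.5 to 60.2. Chromosome 19 was thus the densest in all 3 lists.

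**Figure D5:**
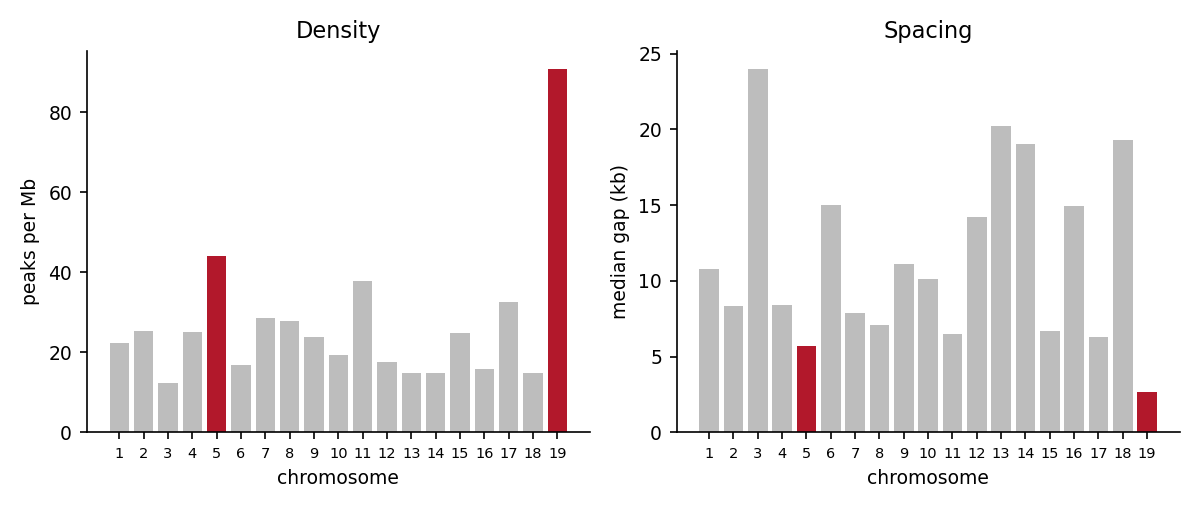
H4K12me1 peaks per Mb (left) and median gap to the next peak in kb (right) on chromosomes 1 to 19, with chromosomes 5 and 19 in red. Chromosome 19 has the greatest density, 90.8 per Mb, and the shortest median gap.

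Peaks were unevenly spaced. The median gap from the end of a peak to the start of the next was 8226 bp (8067 to 8381), the quartiles were 2278 and 27382 bp, and the mean was 39218 bp. The longest gap was 3.35 Mb. The median gap was 2680 bp on chromosome 19, 5705 bp on chromosome 5 and 6321 to 23995 bp on the others. When peaks below the median score were left out, the median gap was 16737 bp. The KMT9beta list, with more peaks, had a median gap of 5152 bp and the KMT9alpha list one of 22497 bp.

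A neighbour within 2 kb was present for 22468 peaks (37.4%, 37.0 to 37.8). It was present for 51.6% of peaks downstream within 5 kb, 50.8% of those upstream within 5 kb, 36.8% of those on a TSS, 35.1% at 5 to 50 kb and 22.0% beyond. Joining peaks at gaps of up to 2 kb gave 46248 runs, of which 37590 were single peaks. Runs of 10 or more peaks numbered 59, and 45 of them lay on chromosome 5 or 19.

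The longest run held 38 peaks in 79.5 kb of chromosome 19 across Myrf, a transcription factor of myelin genes, and Dagla, which makes an endocannabinoid. Runs of 37 and 23 peaks lay close together on chromosome 6, outside protein-coding genes, at chr6:114542319-114632358 and chr6:114492889-114540306. A run of 30 peaks on chromosome 8 had 88.2% of its 91.7 kb covered. The fifth run, with 22 peaks, crossed Sipa1, Pcnx3 and Map3k11, a kinase of the JNK pathway.

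Small RNA genes of the RefSeq annotation were looked at after the scores had been seen. Of 60 ribosomal RNA genes, with a median length of 121 bp, 47 (78.3%, 65.8 to 87.9) overlapped an H4K12me1 peak. They lay under only 23 peaks, with a median score of 540.17, so the interval counts genes that are not independent. The highest of these scores, 1447.86, is also the highest in the run of 30 peaks on chromosome 8. How many of the genes lie in that run was not tested. KMT9alpha peaks overlapped 45 of the 60 genes and KMT9beta peaks 50. Of 386 transfer RNA genes 54 (14.0%, 10.7 to 17.9) overlapped an H4K12me1 peak, with a median score of 97.47. The shares were 12.9% of 1136 microRNA genes, 5.09% of 1276 snoRNA genes and 1.84% of 924 snRNA genes. The list covered 1.92% of the sequenced bases of chromosomes 1 to 19, and a gene is overlapped more readily than a base. On chromosome 1, 3 adjacent peaks near Fcgr3 held 5 transfer RNA genes each and scored 1124.05, 906.22 and 1908.79.

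Genes that mark stem cells of the intestine, and genes of Wnt signalling, which maintains them, were counted when they had a promoter peak at any annotated start. Of 20 stem cell genes 15 had one (50.9% to 91.3%) and 16 had a body peak. Of 25 Wnt pathway genes 21 (63.9% to 95.5%) and 22 did, beside 50.4% and 62.0% of protein-coding genes. Starts inside a gene were counted too. Ephb3, Tnfrsf19, Znrf3, Prom1 and Olfm4 had their only promoter peaks 5478, 8540, 63379, 3394 and 16188 bp into the gene. Rnf43 had its own at 64845 and 71364 bp. The other stem cell genes with a promoter peak had a midpoint within 1224 bp of the 5' end. The lists were not recounted with 1 start per gene, where 42.9% of all protein-coding genes had a promoter peak. The 15 stem cell genes are thus not a count of peaks at 5' ends. Axin2 had 11 body peaks. The one covering its start, chr11:108920221-108921655, scored 203.88 and was 1435 bp wide, and the 10 others, further into the gene, scored 67.21 to 140.11. Ephb2, a receptor that positions cells along the crypt, had 27 body peaks and Lrig1, an inhibitor of growth factor receptors, had 7. Aldh1a1 and Bmi1 had none. In the Wnt list Lrp5, a Wnt co-receptor, had 43 body peaks, Tcf7l2, the main partner of beta-catenin in this tissue, 41, and Nkd1 19, and Csnk1a1 and Fzd8 had none. Lrp5 and Tcf7l2 lie on chromosome 19.

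Single genes of the pathway differed in where the peak lay. In Lgr5 the peak nearest the gene's 5' end, chr10:115586176-115586936, scored 68.13 and had its midpoint 1224 bp into the gene. A second promoter peak of Lgr5, scoring 79.34, lay 128050 bp into the gene beside another annotated transcript start. Ctnnb1, which encodes beta-catenin, had peaks 1292 and 3772 bp into the gene with scores of 99.15 and 72.33. In Apc, which encodes a scaffold of beta-catenin destruction, the only peak covered a start and scored 98.45. Myc, a growth-promoting transcription factor, had peaks at 475 and 2640 bp, scoring 65.41 and 125.38. For the enzyme itself, Trmt112 had a peak of 1987 bp on its start, scoring 185.17. Trmt112 lies on chromosome 19, where 74.4% of genes had a promoter peak. N6amt1 had no promoter peak and a body peak scoring 62.76.

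Epithelial lists held different numbers of genes with a promoter peak, which 50.4% of all protein-coding genes had. A promoter peak was found at 17 of 20 epithelial adhesion and keratin genes, 16 of 20 transcription factors of gut endoderm, 14 of 20 genes of secretory cells such as goblet cells, and 7 of 20 genes of enterocytes and colonocytes. These counts include peaks at starts inside a gene. Tjp1 and Clca1 had their only promoter peaks 156691 and 15050 bp into the gene, and Hnf4a had its own at 40398 and 43235 bp. Others, such as those of Cdh1 and Epcam at 260 and 396 bp, lay near the 5' end. Itgb4, an integrin of hemidesmosomes, and Jup, plakoglobin, had 9 body peaks each, and Krt20 had none. Hnf4a, a regulator of intestinal epithelial genes, had 7 body peaks, and Hnf4g and Isx had none. Fcgbp, a mucus protein, had 7, Pou2f3, the regulator of tuft cells, 5 and the Notch ligand Dll4 4, and Lyz1 and Neurod1 had none. Of the enterocyte genes, Anpep, an aminopeptidase, had 6, Lct, lactase, 5 without a promoter peak and Aqp8, a water channel, 2, and Alpi and Car1 had none.

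Genes of cell division and of histone methylation were counted in the same way, beside the 50.4% of all protein-coding genes. For cell cycle and DNA replication 16 of 20 genes had a promoter peak, and for other histone H4 and lysine methyltransferases 16 of 19 did. The count includes peaks at starts inside a gene. The only promoter peaks of Mcm2, Mcm3, Mcm5 and Mcm7 had midpoints 5386, 15031, 14298 and 6685 bp into the gene. Cdk6, a kinase of the entry into S phase, had 28 body peaks with a highest score of 1065.77 and lies on chromosome 5 at 3341485 to 3531008, inside the dense stretch. Ccnd2 and Ccnd1, cyclins that work with it, had 5 and 4, and Bub1 and Ccnb1 had none. Dot1l, which methylates histone H3 at lysine 79, had 9, and Kmt2d and Kmt2b, which methylate it at lysine 4, had 7 and 6. Nsd2 and Prdm9 had none.

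Lists of other cell types had promoter peaks at up to 10 of 20 genes, beside 50.4% of all protein-coding genes, and body peaks are set beside 62.0%. A promoter peak was found at 2 of 19 immune genes, Cd247 among them, and 5 of 19 had a body peak. Ptprc, Cd3e and Adgre1, which define blood cells, T cells and macrophages, had no promoter peak. Cd247 had 9 body peaks, Csf1r 4 and Itgax 2, and Adgre1 and Cd14 had none. Fibroblast and endothelial genes had promoter peaks at 10 of 20, neuronal genes at 8 of 20 and germ cell genes at 10 of 20, so the lists with 10 were at the level of all genes. Peaks at starts inside a gene are included here too. Rbfox3, Nrxn3 and Pecam1 had their only promoter peaks 403949, 1089367 and 86562 bp into the gene. Others, such as that of Snap25 at 721 bp, lay near the 5' end. Vwf had 10 body peaks, Flt1 6 and Pdgfra 5, and Col1a2 and Col3a1 had none. Rbfox3 had 32, Cntnap2 8 and Grin1 5, and Dcc had none. Dmrt1, which lies on chromosome 19, had 17, Tex14 4 and Nanos3 3, and Dmc1 and Mael had none. The lists differ in gene length, with a median of 441 kb for neuronal and 10.9 kb for immune genes, and its part in these counts was not tested.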

How the data were processed

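ChIP-seq libraries for H4K12me1, KMT9alpha, KMT9beta and input came from 1 organoid clone, and input was not analysed here. The labels' protocol names STAR for mapping to mm10 and the submitters' processing notes name Bowtie2. Each deposited list, 1 per antibody, holds peak coordinates with the authors' score, and the peak names begin with MACS. What the score means, and the version, threshold and control of peak calling, were not given in the sources used here. Library depth is unknown. The 351 H4K12me1 peaks on X, Y and unplaced sequences were left out.

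Genes were the 20807 protein-coding genes of GENCODE M21 on chromosomes 1 to 19, and TSSs were the 90310 starts of all their transcripts. RefSeq GRCm38.p6 gave sequence, repeats and small RNA genes. A promoter was 1 kb either side of a TSS, overlap was 1 bp or more, and a side was taken from the strand of the nearest TSS. Shares have exact Clopper-Pearson intervals and medians order-statistic intervals. Windows of the median peak width that tile the genome served as a description of the background. Named genes were the 10 with most body peaks, the 10 with most peaks per 10 kb, the nearest genes of the 5 highest-scoring and 5 widest peaks and of the 5 longest runs, the 5 with most promoter peaks, per list up to 3 members with most body peaks and up to 2 with no peak, and N6amt1, Trmt112, Myc, Lgr5, Axin2, Ctnnb1 and Apc. Some genes that this rule picks are not reported here. Members and lists were chosen with earlier results of these data known. The position steps were tested on simulated data, and side and distance were recovered for 400 of 400 simulated peaks. Alternatives are given in the closing section. Starts of protein-coding transcripts only were added as an alternative after values under both sets of starts had been seen. The versions were scipy 1.17.1, pandas 2.3.3, numpy 2.4.6, matplotlib 3.10.9 and Python 3.11.15.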

Additional observations from a re-analysis of the deposited data

Results flagged for a closer look

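Outside chromosomes 1 to 19 the list held 351 H4K12me1 peaks that no comparison above uses, and they are given because they are signal in data left aside. Of these, 190 lay on chromosome X, with a median width of 616 bp and a median score of 82.44, and 30.5% of them scored at or above the upper quartile of the main list. Another 41 lay on chromosome Y, with a median score of 82.77. The 120 on unplaced sequences had a median width of 881 bp and a highest score of 1716.59.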

How the results depend on the processing

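Of 45 values under 11 other settings, 4 stayed within the interval of the reported value and 41 moved outside it, and none turned a downstream majority into an upstream one. Leaving out peaks below the median score gave 20.1% of peaks on a TSS, 35.5% of genes with a promoter peak and 47.0% with a body peak, a median distance of 6619 bp, a median gap of 16737 bp and a neighbour within 2 kb for 24.7%. Leaving out chromosomes 5 and 19 gave 15.8%, 48.9%, 60.5%, 7746.5 bp, 9840 bp and 33.7% for the same quantities, and median widths of 883 bp and 592 bp in the highest and lowest of the 4 score classes. With 1 start per gene 8.84% of peaks were on a TSS, 65.6% of those within 5 kb were downstream, 42.9% of genes had a promoter peak and the median distance was 18143 bp. Starts of protein-coding transcripts only, chosen after seeing the data, gave 12.4%, 61.5%, 47.4% and 12711.5 bp. Taking midpoints in place of whole peaks gave 0.0649% on a TSS, since a midpoint is a single base, 60.0% downstream, 48.2% of genes with a promoter peak, 58.9% with a body peak, a median distance of 8605 bp, a median spacing of 8974 bp and 27.2% with a neighbour. The downstream share was 57.1% without starts that face another gene's opposite start within 5 kb and 61.0% within 1 kb. Promoters of 500 bp either side gave 47.2% of genes, bodies without their first 1 kb 49.7%, and neighbours within 5 kb 56.5% of peaks. Leaving out chromosome 5 from 3 to 33 Mb, also chosen after seeing the data, gave 49.6% of genes with a promoter peak, 61.1% with a body peak, 7925 bp, 8516 bp, 36.6% with a neighbour and widths of 916 bp and 592 bp. The number of peaks is large and the intervals narrow, so a small shift leaves them, and beyond the settings' own construction the cause was not tested. The depth of the library is unknown, so a gene without a peak is one without a peak in this list. No paired analysis was possible because each antibody had 1 library.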
